A study of Mus with 12 samples.

Results

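The genes described here are a set of 39 hypoxia-responsive and glycolytic genes put around Ankrd37, an ankyrin repeat gene that is a known target of the hypoxia-inducible factors and whose locus also holds the transcript the study calls lncRNA-ANKRD37. Ankrd37 was selected on its measured levels, which were higher at E0.5 than at E4.5 and lower at E18.5 than at E15.5, and so lower on the later day of both stages, and the other 38 genes were chosen as known hypoxia targets, oxygen sensors and glycolytic enzymes, to ask whether they follow Ankrd37. Members were taken as the rows that carry a member symbol and at least 1 Ensembl transcript. This gave 40 of 87235 rows in the table of the implantation stage, where Aldoa has 2 rows, and 39 of 40787 rows in the table of the labor stage. All member rows passed the minimum of 0.1 FPKM (fragments per kilobase of transcript and library size, a level per length) on average over the 6 libraries of their stage, and entered the tests with 59732 and 30928 rows in all. Gene counts below use 1 row per gene, for Aldoa the row with more Ensembl transcripts. RNA was sequenced from the whole uterus of 12 pregnant ICR mice, an outbred stock, mated at the same age and given no treatment that the labels name, with 3 mice and so 3 libraries on each of 4 days. Embryonic days 0.5 (E0.5) and 4.5 (E4.5) form the implantation stage, while E15.5 with E18.5 makes up the labor stage. The whole uterus mixes smooth muscle, stroma, epithelium, vessels and immune cells, so that fewer cells of a type and less RNA per cell cannot be told apart. The 2 stages were assembled and normalized separately, and no level of one was tested against the other.

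Cells sense oxygen through the prolyl hydroxylases, among them Egln1 (PHD2) and Egln3 (PHD3), which mark the alpha subunits Hif1a and Epas1 (HIF-2 alpha) for degradation when oxygen is present. When oxygen falls, the subunits persist and raise genes of glucose uptake, glycolysis, pH control, vessel growth and mitophagy, and they also raise Egln3 and, to a lesser degree, Egln1. In the pregnant uterus glycolysis is known to be used by the decidualizing stroma, and hypoxia-inducible factors are known to act around implantation.

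The study also measured lncRNA-ANKRD37 in cultured uterine cells by qRT-PCR, with Gapdh as its reference, and both genes are members of the set. Their primers are shown, 5′ to 3′ and wholly in lower case, because they define which transcript the name refers to and because the reference is itself a glycolytic gene. The transcript given for the first pair is 1 of the 6 Ensembl transcripts that the Ankrd37 row sums in both tables, so the lncRNA and the protein-coding transcripts were not separated.
lncRNA-ANKRD37 forward primer: tgggcgatgctgttgcttagttg
lncRNA-ANKRD37 reverse primer: gcgttcactgatgctcctgtctc
Gapdh forward primer: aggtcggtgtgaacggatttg
Gapdh reverse primer: tgtagaccatgtagttgaggtc

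The libraries of the implantation stage held 58020989 to 70906881 counts, and depth is unknown for the labor stage, which has FPKM only. In 2 libraries other tissue markers stood apart. In E4.5 replicate 3 the summed level of 9 ovary and oviduct markers, all with a row, was 904 FPKM, against 8.85 to 20.6 in the other 5 libraries of the stage, with Cyp11a1 at 378 FPKM, and its 6 smooth muscle markers summed to 201 FPKM against 779 to 1192. In E15.5 replicate 1 the 6 decidua markers summed to 1355 FPKM, nearly all of it Prl8a2, against 58.6 to 98.9 in the other 5. E4.5 replicate 3 was the highest or the lowest library for 23 of the 39 genes, against 8 to 15 for the others of its stage, and E15.5 replicate 1 for 27, against 4 to 18. The member counts by the criterion, by p-value, by sign and for the stage difference are therefore also given without the library concerned, while counts of genes whose libraries did not overlap are given with all libraries only.

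Other marker sums also differed by day. At the implantation stage the sum of 5 macrophage markers was 68.9 to 73.6 FPKM at E0.5 against 36.6 to 49.4 at E4.5, and that of 5 epithelial markers 165 to 206 and 58.7 to 137, and both sums also stood apart without their largest markers, Lyz2 and Krt18. The sum of 5 endothelial markers was 24.0 to 31.8 and 37.4 to 56.6 FPKM. Cdh5 alone measured 6.03 to 7.45 against 11.5 to 26.3 FPKM, and without it the sums overlapped (16.7 to 25.8 against 18.49 to 30.4 FPKM). Neutrophil markers stayed between 0.999 and 3.25 FPKM with S100a9 and Retnlg at 0 in all 6 libraries, and 7 of the 10 trophoblast markers were at 0 in all of them. At the labor stage the epithelial sum was 491 to 685 FPKM at E18.5 and 178 to 357 at E15.5. The endothelial sum was 67.8 to 97.1 and 134 to 164 FPKM. Cdh5 alone measured 32.8 to 63.8 against 101 to 129 FPKM, and without it the sums overlapped (30.2 to 35.0 against 31.9 to 34.6 FPKM). The sum of the 9 trophoblast markers with a row was 44.6 to 75.6 and 4.07 to 35.2 FPKM, and it overlapped without Tpbpa (12.7 to 22.9 against 2.41 to 29.0 FPKM). The sum of the 6 decidua markers overlapped at the implantation stage (17.7 to 21.6 FPKM at E0.5 and 14.2 to 21.4 at E4.5), with 3 of them meeting the study's criterion. Alpl measured 11.3 to 16.5 FPKM at E0.5 against 1.29 to 1.36 at E4.5, and without it the sum was 3.11 to 8.89 against 12.8 to 20.1 FPKM. At the labor stage the decidua sum was lower at E18.5 (58.6 to 76.8 against 81.3 to 1355 FPKM), and without Prl8a2 it was higher (16.8 to 18.4 against 9.15 to 12.9 FPKM). The sums without the largest marker were added after seeing the data. The part of these differences in the results below was not tested. All 7 uterus markers had a row in both tables. They summed to 56.8 to 70.6 FPKM at the labor stage. At the implantation stage they summed to 22.6 FPKM in E4.5 replicate 3, the library with ovary and oviduct transcripts, and to 78.7 to 132 FPKM in the others.

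The row of Ankrd37 spans chr8:45996902-46005707 (minus strand) in the implantation table, and it and the other 38 member rows overlap the RefSeq gene of their symbol in the mouse build GRCm38. It measured 3.25, 2.87 and 3.17 FPKM in the 3 libraries of E0.5 and 0.552, 0.504 and 0.700 FPKM in those of E4.5. The 3 libraries of E0.5 all lay above those of E4.5. At E15.5 it measured 4.495, 3.15 and 2.90 FPKM and at E18.5 1.21, 1.68 and 1.87 FPKM, again without overlap and lower on the later day. The log2 fold changes were 2.39 (SE 0.25) at the implantation stage (E0.5 relative to E4.5) and -1.10 (SE 0.24) at the labor stage (E18.5 relative to E15.5), on a scale of log2(FPKM + 0.1) in the second case. These values selected the set and are given without a test. Without E15.5 replicate 1 the labor stage value was -0.91.

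**Figure D1:**
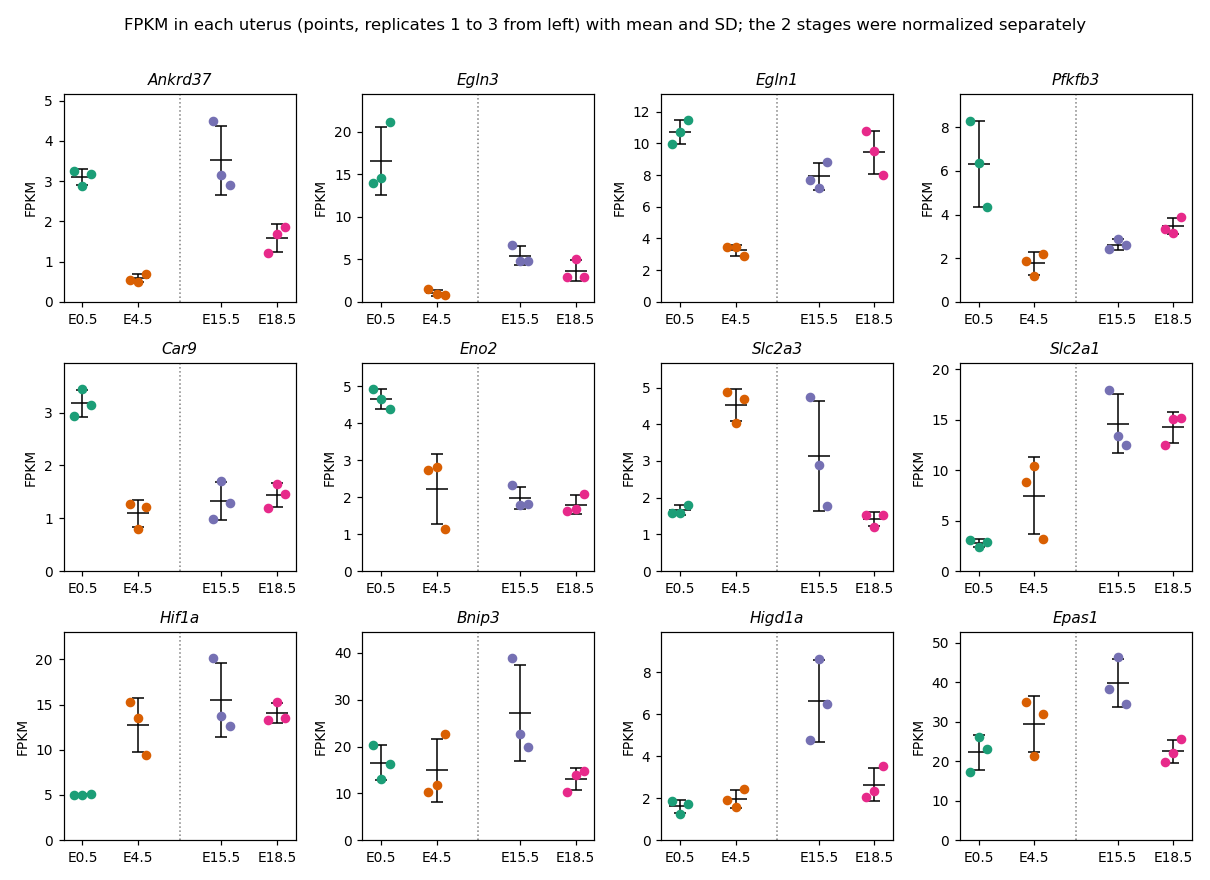
FPKM (y axis, from 0) of Ankrd37 and 11 other members in each library (points, replicates 1 to 3 from left to right) on the 4 days of pregnancy (x axis), with the mean and SD of 3 mice. Egln3, Egln1, Pfkfb3, Car9 and Eno2 are higher at E0.5 than at E4.5, as Ankrd37 is, while Slc2a3, Slc2a1 and Hif1a are lower. Bnip3, Higd1a, Epas1 and Slc2a3 are lower at E18.5 than at E15.5, as Ankrd37 is. The dotted line separates the stages, which were normalized separately.

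At the implantation stage the other 38 genes did not move one way. By the study's criterion, which asks for a log2 fold change of 1 or more in size and for p under 0.05 before adjustment, 5 of the 38 were higher at E0.5 (Egln3, Egln1, Pfkfb3, Car9 and Eno2) and 3 were lower (Slc2a3, Slc2a1 and Hif1a). Of all rows tested, 6.37% were higher and 5.82% lower by this criterion, and among Ensembl rows averaging 10 FPKM or more these shares were 7.38% and 6.2%. Among the 38, 19 had a positive log2 fold change and 19 a negative one (23 and 15 without E4.5 replicate 3), and the median over all 39 was 0.05, against -0.01 over all rows. The libraries of the 2 days did not overlap for 7 of the 38 upward and 8 downward, against 12.8% and 12.5% of all rows. With an adjusted p under 0.05 from edgeR, 2 of the 38 were higher (Egln3 and Egln1, against 0.763% of rows) and 1 was lower (Slc2a3, against 0.459%). Without E4.5 replicate 3, the criterion gave 5 higher and 4 lower besides Ankrd37 (background 7.82% and 6.31%), with Aldoc and Ndrg1 added and Eno2 lost, and 6 higher and 4 lower passed the adjusted p (background 3% and 3.07%). With any 1 of the other 5 libraries left out, no member but Egln3 passed the adjusted p, and Egln3 did so in 1 of those 5 fits. With all libraries, DESeq2 in place of edgeR put 8 of the 38 past the adjusted p, with Slc2a1, Pfkfb3, Gapdh, Car9 and Hif1a added, and limma on FPKM put 5 past it, with Pfkfb3 and Hif1a added. No share of all rows is given for these fits or for those without the other 5 libraries. Their counts are therefore not read as particular to the members.

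Egln3 had the largest fold change of the set, and Egln1, the other oxygen sensor, was also higher at E0.5. Egln3, the prolyl hydroxylase PHD3 (chr12:54178981-54203860, minus strand), measured 13.996, 14.5 and 21.2 FPKM at E0.5 against 1.46, 0.903 and 0.798 FPKM at E4.5, from 2862 to 4914 counts at E0.5 and 173 to 330 at E4.5. Its log2 fold change was 3.97 (SE 0.36, adjusted p = 0.0136, edgeR), and it stayed between 3.74 and 4.32 with each library left out. Egln1, the main oxygen sensor in most cells (chr8:124908587-124949324, minus strand), measured 9.96, 10.7 and 11.5 FPKM at E0.5 against 3.44, 3.46 and 2.87 FPKM at E4.5. Its log2 fold change was 1.72 (SE 0.17, adjusted p = 0.0176, edgeR). The Egln1 locus also held 2 rows without an Ensembl transcript, and both were higher at E0.5 by the study's criterion, at 4.14 to 4.97 against 1.49 to 1.95 FPKM and 6.40 to 8.49 against 2.47 to 2.66 FPKM. Their reads and those of Egln1 may come from the same transcripts, since the counting is not stated to use strand. Rows of this kind at other loci were mixed. That of Egln3 was higher but did not meet the criterion (log2 fold change 2.79). Those of Pfkfb3 went both ways (for example 2.02, which met it, and -0.81, which did not). A row at the Epas1 locus was lower at E0.5 by the criterion (-1.34).

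Hif1a, the inducible alpha subunit, went the other way from both sensors. Its row (chr12:73901375-73984107, plus strand), which also sums Snapc1 and Snapc1l, measured 4.997, 5.01 and 5.07 FPKM at E0.5 against 15.3, 13.5 and 9.46 FPKM at E4.5. It was lower at E0.5 in all libraries by a log2 fold change of -1.34 (SE 0.23, adjusted p = 0.0531, edgeR), which met the study's criterion. It passed the adjusted p without E4.5 replicate 3 (-1.54, adjusted p = 0.0031), with DESeq2, with limma on FPKM and with a minimum of 1 FPKM. Epas1, the alpha subunit most used by vessels, measured 17.3, 26.2 and 23.2 FPKM at E0.5 against 35.0, 21.4 and 31.9 FPKM at E4.5. Its groups overlapped, with a log2 fold change of -0.40 (SE 0.27, adjusted p = 0.486, edgeR), or -0.23 without E0.5 replicate 1 and -0.22 without E4.5 replicate 1.

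Of the 3 transporters in the set, the glucose transporters Slc2a3 and Slc2a1 were lower at E0.5 by the criterion, as were 5.82% of all rows. Slc2a4, a glucose transporter outside the set that is described below, was higher (log2 fold change 1.17). Slc2a3 (GLUT3, chr6:122727809-122801640, minus strand) measured 1.58, 1.58 and 1.81 FPKM at E0.5 against 4.87, 4.03 and 4.68 FPKM at E4.5. Its log2 fold change was -1.44 (SE 0.18, adjusted p = 0.0259, edgeR). Slc2a1 (GLUT1), the basal glucose transporter, measured 3.11, 2.36 and 2.90 FPKM at E0.5 against 8.88, 10.4 and 3.15 FPKM at E4.5. The groups did not overlap, but E4.5 replicate 3 lay just above E0.5. The log2 fold change was -1.42 (SE 0.44, adjusted p = 0.171, edgeR) with all libraries and -1.802 (SE 0.16, adjusted p = 0.00283) without that library, and Slc2a1 lost the criterion without E0.5 replicate 2. The lactate exporter Slc16a3 measured 1.25 to 2.33 FPKM at E0.5 against 1.06 to 1.68 at E4.5, which overlapped.

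Among the 14 glycolytic enzymes 1 was higher by the criterion and none was lower, where 6.37% and 5.82% of all rows were. Eno2, the neuronal enolase, measured 4.92, 4.65 and 4.38 FPKM at E0.5 against 2.72, 2.81 and 1.13 FPKM at E4.5. This was a log2 fold change of 1.06 (SE 0.37, adjusted p = 0.215, edgeR), or 0.73 without E4.5 replicate 3, and Eno2 lost the criterion without that library, without E0.5 replicate 1 and without E0.5 replicate 2. Hexokinase 2 (Hk2), the inducible hexokinase, measured 6.95, 4.25 and 6.48 FPKM at E0.5 against 3.85, 3.95 and 1.64 FPKM at E4.5, without overlap, with a log2 fold change of 0.90 (SE 0.39, adjusted p = 0.301, edgeR), or 0.58 without E4.5 replicate 3. It met the criterion without E0.5 replicate 2 and without E4.5 replicate 1. Hk1, the constitutive hexokinase, measured 2.72, 3.08 and 3.24 FPKM at E0.5 against 4.05, 3.93 and 3.73 FPKM at E4.5, also without overlap and with the opposite sign (log2 fold change -0.36, SE 0.16, adjusted p = 0.319). Pgam1, the phosphoglycerate mutase, measured 27.1, 18.51 and 22.3 FPKM at E0.5 against 33.1, 32.5 and 65.5 FPKM at E4.5 (log2 fold change -0.93, SE 0.30, adjusted p = 0.194). Its value was -0.55 without E4.5 replicate 3, and it met the criterion without E0.5 replicate 1, without E4.5 replicate 1 and without E4.5 replicate 2. Aldoc showed how 1 library set a value. It measured 3.44, 3.15 and 3.36 FPKM at E0.5 against 0.174, 0.306 and 4.88 FPKM at E4.5, and its log2 fold change was 0.95 (SE 1.12, adjusted p = 0.705) with all libraries and 3.77 (SE 0.31, adjusted p = 0.00196) without E4.5 replicate 3.

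The other enzymes met no criterion. Aldoa measured 54.7, 57.3 and 76.3 FPKM at E0.5 against 44.5, 46.2 and 69.6 FPKM at E4.5 in its larger row. Tpi1, Eno1, Pkm, Gpi1, Pfkl, Pfkp and Pgk1 had log2 fold changes between -0.30 and 0.42 with overlapping groups. Gapdh, the reference of the qRT-PCR, measured 2.73, 2.27 and 2.22 FPKM at E0.5 against 3.81, 3.67 and 4.30 FPKM at E4.5. It was lower at E0.5 without overlap, with a log2 fold change of -0.69 (SE 0.18, adjusted p = 0.122, edgeR) and an adjusted p under 0.05 with DESeq2.

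Copies of these genes in the tables limit how far single enzymes can be read. The Gapdh row was at 2.22 to 4.30 FPKM at the implantation stage and at 29.4 to 34.4 FPKM at the labor stage, and its copy Gapdh-ps15 was at 0 to 0.0688 FPKM in the first and 24.8 to 29.4 FPKM in the second. Pgam1-ps2 was at 7.10 to 19.6 FPKM beside Pgam1 at the implantation stage, and Eno1b was at 3.60 to 26.2 FPKM beside Eno1. Reads may have been split between such copies, so Gapdh, Pgam1, Eno1 and Tpi1 are uncertain.

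Of the 4 genes of flux control and pyruvate fate, Pfkfb3 was higher at E0.5 by the criterion, as were 6.37% of all rows. Pfkfb3, which makes the activator of phosphofructokinase (chr2:11471433-11554077, minus strand), measured 8.30, 6.36 and 4.36 FPKM at E0.5 against 1.88, 1.21 and 2.20 FPKM at E4.5. Its log2 fold change was 1.85 (SE 0.32, adjusted p = 0.0536, edgeR), and 2.003 (adjusted p = 0.0198) without E4.5 replicate 3. Its relative Pfkfb4 had the opposite sign, at 1.98, 1.69 and 1.80 FPKM against 3.47, 2.61 and 2.45 FPKM (log2 fold change -0.64, SE 0.22, adjusted p = 0.214), without overlap. Ldha, which makes lactate from pyruvate, measured 23.0, 20.5 and 24.4 FPKM at E0.5 against 19.1, 16.4 and 13.9 FPKM at E4.5, without overlap (log2 fold change 0.46, SE 0.19, adjusted p = 0.292). Pdk1, which holds pyruvate back from oxidation in the mitochondria, measured 1.25, 1.52 and 2.90 FPKM against 2.18, 2.19 and 3.53 FPKM, which overlapped.

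Of the remaining targets 1 met the criterion, upward, where 6.37% of all rows did. Car9, the membrane carbonic anhydrase that exports acid, measured 2.93, 3.45 and 3.14 FPKM at E0.5 against 1.27, 0.789 and 1.21 FPKM at E4.5 (log2 fold change 1.53, SE 0.28, adjusted p = 0.0599, edgeR, and 0.0314 without E4.5 replicate 3). Car12, a related enzyme, gave 11.7, 13.7 and 24.6 FPKM against 29.0, 17.9 and 3.20 FPKM, and the low value was again E4.5 replicate 3. Ndrg1, a stress-responsive gene, measured 10.5, 7.34 and 11.9 FPKM against 25.3, 23.5 and 5.27 FPKM, with a log2 fold change of -0.87 (SE 0.57, adjusted p = 0.467) that became -1.32 (SE 0.22, adjusted p = 0.0199) without that library. P4ha1, a collagen prolyl hydroxylase, was lower at E0.5 without overlap (3.27 to 3.64 against 3.76 to 8.26 FPKM, log2 fold change -0.63, SE 0.29, adjusted p = 0.323, and -0.25 without E4.5 replicate 3). Vegfa, the vessel growth factor, measured 2.89, 4.07 and 4.93 FPKM at E0.5 against 3.81, 3.58 and 4.85 FPKM at E4.5. The log2 fold change was -0.03 (SE 0.24, adjusted p = 0.968), and 0.09 without E4.5 replicate 3. Ddit4, an inhibitor of mTOR signalling, lay just outside the criterion, with 11.4, 20.1 and 8.48 FPKM at E0.5 against 9.31, 6.48 and 3.99 FPKM at E4.5 (log2 fold change 1.01, SE 0.44, adjusted p = 0.311), and met it without E0.5 replicate 3 and without E4.5 replicate 1. Bnip3, at 20.4, 13.0 and 16.4 FPKM against 10.4, 11.7 and 22.6 FPKM, and Higd1a, at 1.85, 1.26 and 1.71 FPKM against 1.91, 1.58 and 2.42 FPKM, overlapped between the days. Bnip3l, P4ha2, Ero1l, Kdm3a and Mxi1 also overlapped, with log2 fold changes from -0.46 to 0.28.

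**Figure D2:**
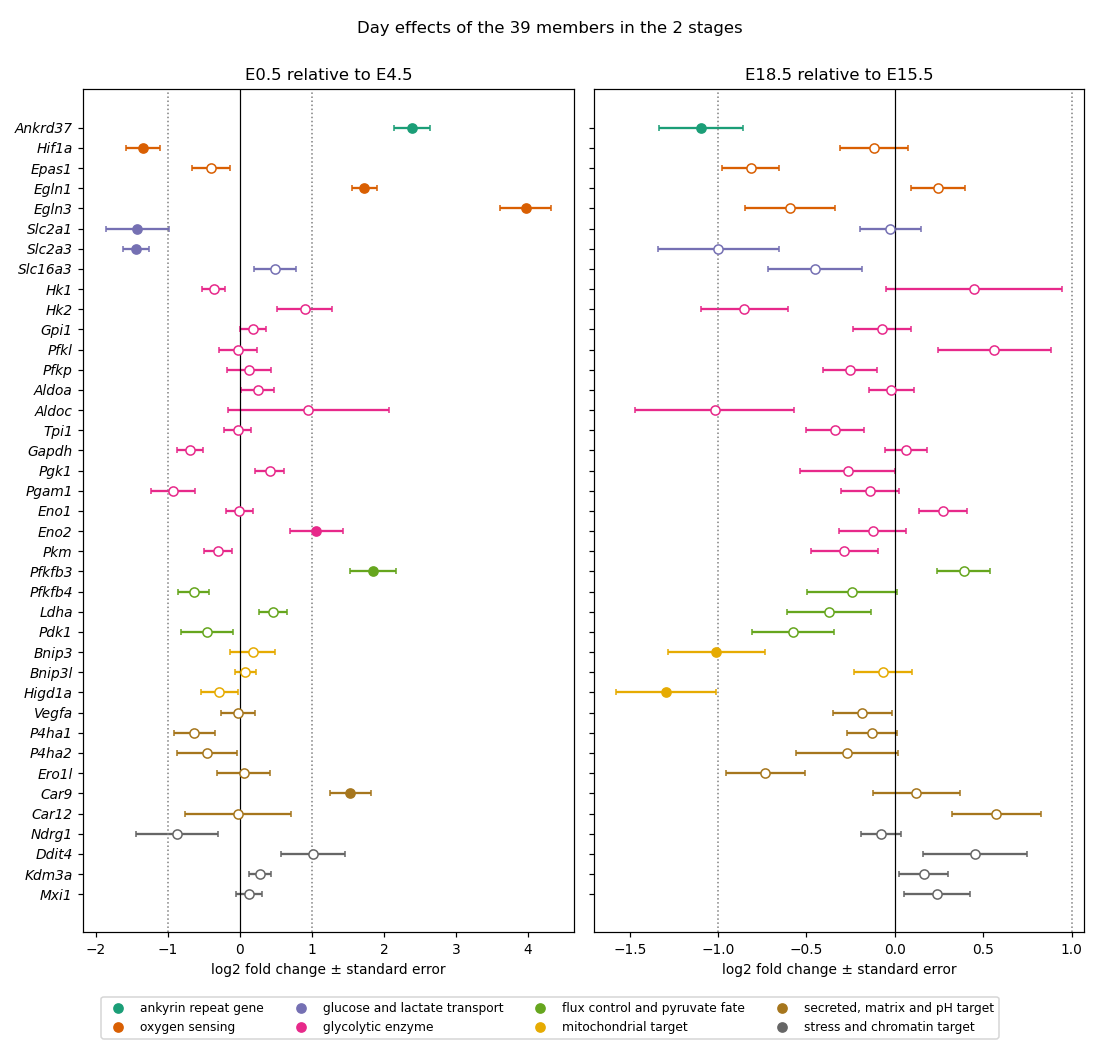
Log2 fold change with its standard error (x axis) of each of the 39 members (y axis, grouped and coloured by role), with E0.5 relative to E4.5 on the left and E18.5 relative to E15.5 on the right, with filled points for members that met the study's criterion and dotted lines at -1 and 1. Egln3 at 3.97 stands farthest out on the left, and Higd1a at -1.30 on the right.

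At the labor stage few of the 38 genes met the criterion, and more had a negative than a positive log2 fold change. By the study's criterion 2 of the 38 genes were lower at E18.5, Higd1a and Bnip3, and none was higher, against 2.93% and 3.11% of all rows, and 2.5% and 2.75% of Ensembl rows averaging 10 FPKM or more. With limma's adjusted p none of the 38 passed in either direction, where 0.00647% of rows passed lower and 0.0194% higher. With an unadjusted p under 0.05 and no minimum fold change 7 of the 38 were lower and 1 was higher, against 5.51% and 6.64% of rows. Without E15.5 replicate 1 the counts were 8 and 0, and no share of all rows by this rule is given for that fit. In all, 27 of the 38 had a negative log2 fold change and 11 a positive one (24 and 14 without E15.5 replicate 1). The share of all rows with a negative value is not given. The median over the 39, which include Ankrd37, was -0.14, against 0.02 over all rows. The 2 days did not overlap for 7 of the 38 downward and 2 upward, against 8.96% and 10.9% of rows. Without E15.5 replicate 1, Higd1a alone of the 38 met the criterion (background 2.57%). Without E15.5 replicate 3 the criterion gave 5 of the 38, and without E18.5 replicate 3 it gave 4, the added genes being Slc2a3, Aldoc and, in the first case, Hk2. Without E18.5 replicate 1 it gave Slc2a3 and Higd1a alone. No share of all rows is given for the fits without E15.5 replicate 3, E18.5 replicate 3 or E18.5 replicate 1. Whether all rows rose or fell with these counts is therefore not shown.

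The genes that met the criterion were Higd1a and Bnip3. Higd1a, a hypoxia-induced protein of the respiratory chain, measured 4.75, 8.63 and 6.46 FPKM at E15.5 and 2.03, 2.33 and 3.52 FPKM at E18.5. The log2 fold change of Higd1a was -1.30 (SE 0.28, adjusted p = 0.167, limma), and it kept the criterion with each library left out. Bnip3, which marks mitochondria for removal, measured 38.9, 22.6 and 19.9 FPKM at E15.5 and 10.3, 13.99 and 14.7 FPKM at E18.5. That of Bnip3 was -1.01 (SE 0.27, adjusted p = 0.23, limma), and -0.72 without E15.5 replicate 1, and it lost the criterion without that library and without E18.5 replicate 1. Its relative Bnip3l overlapped between the days (15.6 to 21.6 against 15.3 to 18.6 FPKM).

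Other members were lower at E18.5 without overlap but short of the criterion. Epas1 measured 38.3, 46.5 and 34.6 FPKM at E15.5 and 19.8, 22.0 and 25.7 FPKM at E18.5. Its log2 fold change was -0.82 (SE 0.16, adjusted p = 0.152, limma) and -0.84 without E15.5 replicate 1. Of the 5 endothelial markers 1 met the criterion between these days, Cdh5, which was lower at E18.5, and the sum of the other 4 overlapped, with Pecam1 lower (13.9 to 15.7 against 17.3 to 20.3 FPKM) and Cldn5 higher (7.39 to 9.25 against 5.02 to 6.31 FPKM) in all libraries of E18.5. Slc2a3 measured 4.75, 2.90 and 1.78 FPKM at E15.5 and 1.54, 1.19 and 1.52 FPKM at E18.5 (log2 fold change -0.998, SE 0.34, adjusted p = 0.319), just under the minimum of 1, and -0.65 without E15.5 replicate 1. Hk2 measured 8.35, 12.4 and 6.18 FPKM at E15.5 and 4.78, 4.88 and 4.53 FPKM at E18.5 (log2 fold change -0.85, SE 0.25, adjusted p = 0.248). Ero1l, the oxidase that forms disulfide bonds in the secretory pathway, measured 42.7, 28.6 and 23.3 FPKM against 17.8, 19.9 and 17.5 FPKM (log2 fold change -0.73, SE 0.22, adjusted p = 0.273). Pdk1 measured 4.68, 3.66 and 3.15 FPKM against 1.88, 3.04 and 2.75 FPKM (log2 fold change -0.58, SE 0.23, adjusted p = 0.397, and -0.38 without E18.5 replicate 1).

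Pfkfb3 and Pfkl were higher at E18.5 without overlap but met no criterion, and these 2 of the 38 stand against 10.9% of all rows. Pfkfb3 measured 2.42, 2.88 and 2.59 FPKM at E15.5 and 3.36, 3.17 and 3.91 FPKM at E18.5 (log2 fold change 0.39, SE 0.15, adjusted p = 0.376, limma). Pfkl, the liver type phosphofructokinase, measured 2.11, 4.65 and 4.96 FPKM and 5.003, 5.37 and 6.04 FPKM (log2 fold change 0.56, SE 0.32, adjusted p = 0.523), with the low value from E15.5 replicate 1, without which it was 0.18.

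The rest overlapped between E15.5 and E18.5. The row of Hif1a, which here too sums Snapc1, measured 20.2, 13.7 and 12.7 FPKM at E15.5 and 13.3, 15.3 and 13.5 FPKM at E18.5 (log2 fold change -0.12, SE 0.19, adjusted p = 0.834, and 0.09 without E15.5 replicate 1). Vegfa measured 6.18, 8.82 and 8.16 FPKM and 6.13, 6.99 and 7.06 FPKM (log2 fold change -0.18, SE 0.16, adjusted p = 0.683, and -0.33 without that library). Gapdh measured 34.4, 29.4 and 31.0 FPKM and 34.4, 33.3 and 31.3 FPKM (log2 fold change 0.07, SE 0.12, adjusted p = 0.851). Pgk1, Ldha and Pkm were highest in E15.5 replicate 1, at 63.7, 53.7 and 72.6 FPKM against 26.1 to 49.1 for the 3 genes in the other 5 libraries. Egln3 measured 6.71, 4.84 and 4.75 FPKM and 2.93, 5.06 and 2.94 FPKM (log2 fold change -0.59, SE 0.26, adjusted p = 0.419), and Egln1 7.69, 7.19 and 8.84 FPKM and 10.7, 9.54 and 7.99 FPKM (log2 fold change 0.24, SE 0.15, adjusted p = 0.565).

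Aldoc lay just outside the criterion at the labor stage, at 1.39, 0.597 and 0.457 FPKM at E15.5 against 0.263, 0.223 and 0.490 FPKM at E18.5 (log2 fold change -1.02, SE 0.45, adjusted p = 0.428), and was -0.60 without E15.5 replicate 1. Slc2a1 measured 17.98, 13.4 and 12.5 FPKM at E15.5 against 12.5, 15.1 and 15.2 FPKM at E18.5. Car9 measured 0.988, 1.71 and 1.29 FPKM against 1.19, 1.64 and 1.47 FPKM. The libraries of both days were interleaved for these 2 genes. Tpi1 gave 63.8, 48.9 and 49.2 FPKM against 40.3, 38.5 and 48.9 FPKM (log2 fold change -0.34, SE 0.17, adjusted p = 0.466, and -0.21 without E15.5 replicate 1), and Aldoa 65.3, 72.7 and 76.9 FPKM against 71.4, 68.2 and 71.9 FPKM. Hk1 measured 2.35, 10.1 and 7.46 FPKM against 6.60, 8.68 and 8.00 FPKM, the lowest value being that of E15.5 replicate 1. Without that library the sign of the log2 fold change turned for 7 of the 38 (Slc2a1, Hk1, Pgk1, Pgam1, Bnip3l, Car9 and Hif1a). The log2 fold changes of the other overlapping members lay between -0.45 (Slc16a3) and 0.57 (Car12).

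**Figure D3:**
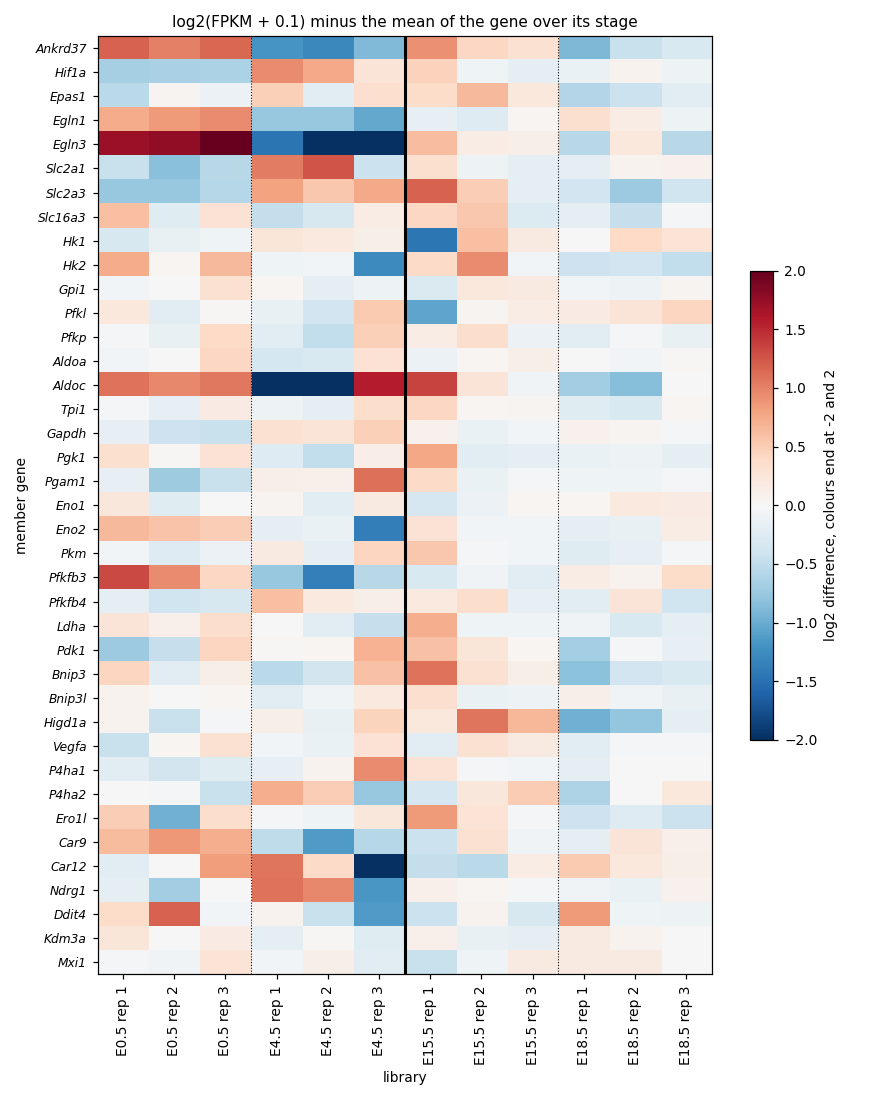
log2(FPKM + 0.1) of each member (rows) in each of the 12 libraries (columns), minus the mean of the gene over the 6 libraries of its stage, with red above and blue below that mean, colours ending at -2 and 2, and the thick line between the stages. E4.5 replicate 3 parts from its group for Slc2a1, Aldoc, Car12 and Ndrg1, and E15.5 replicate 1 is the highest library of its stage for 18 of the 39 genes.

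The direction of Ankrd37 over both stages was shared by some members, but none of the 38 met the criterion in both. Of the 38, 13 were higher at E0.5 and lower at E18.5 whatever the size, against 17.4% of the 22056 row pairs that share Ensembl transcripts. Without E4.5 replicate 3 this count was 15 and without E15.5 replicate 1 it was 12. Hk2 was the only other member whose libraries were higher at E0.5 and lower at E18.5 without overlap in both, 1 of 38 against 0.843% of row pairs. The days of Slc2a3 and Pfkfb3 did not overlap in either stage, so that with Hk2 3 of the 38 had no overlap in both, against 6.51% of row pairs, but Slc2a3 was lower at both E0.5 and E18.5 and Pfkfb3 higher at both, so that each took opposite directions in time in the 2 stages.

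The difference between the 2 day effects was tested in 1 limma fit over the 12 libraries on log2(FPKM + 0.1). It takes E0.5 relative to E4.5 and E18.5 relative to E15.5 as the study does, so that the first names the earlier and the second the later day, and a gene lower on the later day of both stages has a positive difference. It was 4.46 (SE 0.40, adjusted p = 0.000421) for Egln3 and 1.45 (SE 0.22, adjusted p = 0.00826) for Egln1. These were the 2 of the 38 past an adjusted p under 0.05, where 2.64% of row pairs passed, and both passed with each of the 12 libraries left out in turn. For Ankrd37 the difference was 3.33, given without a test. Without E4.5 replicate 3, 9 of the 38 passed, with Slc2a1, Pfkfb3, Aldoc, Bnip3, Car9, Ndrg1 and Hif1a added (background 5.76%). Without E15.5 replicate 1, 5 passed, with Gapdh, Car9 and Hif1a added (background 2.71%).

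With the later day set against the earlier one in both stages, a comparison added after seeing the data, 8 of the 38 passed, where 7.61% of row pairs did, and 10 did without E4.5 replicate 3 (background 12%) and 7 without E15.5 replicate 1 (background 5.12%). Egln3 (-3.28, SE 0.40, adjusted p = 0.00175, limma) and Egln1 (-1.94, SE 0.22, adjusted p = 0.00103) passed in this order too, the implantation stage having the more negative change in time. Pfkfb3 (-2.17) and Car9 (-1.60) also passed, as did Higd1a (1.57), Slc2a3 (2.39), Hif1a (1.41) and Epas1 (1.21). Epas1 no longer passed without E15.5 replicate 1 (adjusted p = 0.0692, limma) or without E4.5 replicate 3 (adjusted p = 0.0512, limma). Hk2, at -0.10 (SE 0.48, adjusted p = 0.928), fell short.

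By distance between the pairs of log2 fold changes, the members nearest to Ankrd37 were Aldoc (1.44), Car9 (1.49) and Egln1 (1.499), of 38 compared. The distance used edgeR values for the implantation stage and limma values on log2(FPKM + 0.1) for the labor stage. For Aldoc it depends on this choice and on E4.5 replicate 3. Its implantation value was 0.95 by edgeR but 2.06 on log2(FPKM + 0.1), where Ankrd37 had 2.39 and 2.23. Distances on that single scale or without that library are not given. Among 10850 protein-coding row pairs with at least 1 FPKM on average in both tables, rows that lay nearer by the distance used included Lrg1 (0.23), the merged row of Galnt12 and Gm12424 (0.38), Pik3r5 (0.44) and Syndig1 (0.57). Lrg1, a secreted leucine-rich glycoprotein, averaged 17.3 FPKM at E0.5, 3.80 FPKM at E4.5, and then 30.7 and 13.8 FPKM at E15.5 and E18.5. The distances describe these 12 libraries and say nothing of shared control.

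**Figure D4:**
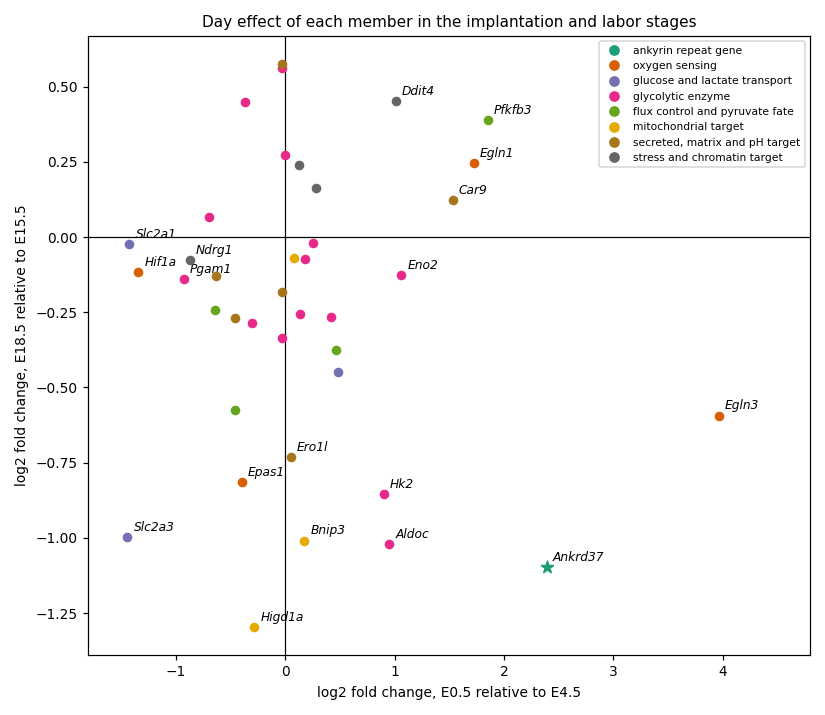
Log2 fold change of each member comparing E0.5 with E4.5 (x axis) against that comparing E18.5 with E15.5 (y axis), coloured by role, with Ankrd37 as the star. The lower right part, higher at E0.5 and lower at E18.5, holds Ankrd37 and 13 other members, with Aldoc (-1.02) and Bnip3 (-1.01) nearest to its labor stage value of -1.10.

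Other genes of the same pathways were described from lists that overlap no member. Of 34 further hypoxia genes, 5 were higher and 5 lower at E0.5 by the criterion, against 6.37% and 5.82% of all rows, with a median log2 fold change of -0.17, or -0.08 without E4.5 replicate 3. With an adjusted p under 0.05, 1 gene passed upward and none downward, against 0.763% and 0.459% of rows, and 7 passed without E4.5 replicate 3, where 3% and 3.07% of rows did. That 1 gene was Stc2, a secreted stanniocalcin, at 5.80, 4.34 and 4.60 FPKM against 1.52, 1.79 and 2.20 FPKM (log2 fold change 1.43, SE 0.20, adjusted p = 0.0337, edgeR). Others that met the criterion included Bhlhe40 (2.47), a transcriptional repressor, and Lox (2.19), which crosslinks collagen, upward, and Hif3a (-2.69), an inhibitory alpha subunit, and Flt1 (-1.18), a VEGF receptor, downward. Hif3a measured 0.345, 0.415 and 0.451 FPKM at E0.5 against 3.16, 3.67 and 0.974 FPKM at E4.5. At the labor stage 3 of the 34 were higher and 1 was lower at E18.5, against 3.11% and 2.93% of rows, none past the adjusted p, with a median of -0.12, and without E15.5 replicate 1 the counts were 2 and 2. Flt1 was higher (2.04, 2.62 and 2.73 FPKM at E15.5 and 6.15, 6.37 and 5.57 FPKM at E18.5, log2 fold change 1.27, SE 0.16, adjusted p = 0.0722, limma), as were Ppp1r3c (1.52) and Edn1 (1.04). Ndufa4l2, a hypoxia-induced subunit of the respiratory chain, was lower (17.7, 24.5 and 23.2 FPKM and 4.26, 7.33 and 11.9 FPKM, log2 fold change -1.57, SE 0.36, adjusted p = 0.177).

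Of 23 other glycolysis genes, 21 were tested at the implantation stage and 1 was higher (6.37% of all rows), the insulin-responsive glucose transporter Slc2a4 (6.17, 7.14 and 7.28 FPKM against 4.25, 3.23 and 1.60 FPKM, log2 fold change 1.17, SE 0.38, adjusted p = 0.189, edgeR), with a list median of 0.08. Without E4.5 replicate 3 this transporter no longer met the criterion, and the list median was 0.26. At the labor stage 20 were tested, with a median of 0.13, or 0.01 without E15.5 replicate 1. Of 9 genes of pyruvate oxidation (medians -0.46 at the implantation and -0.05 at the labor stage) 1 was lower at E0.5, Pdhx (2.11, 2.06 and 1.999 FPKM against 2.56, 2.97 and 7.41 FPKM, the last from E4.5 replicate 3), against 5.82% of all rows, and none at E18.5. Without that library Pdhx no longer met the criterion, and the list median at the implantation stage was -0.20. Of 12 autophagy genes (medians 0.16 and 0.11) Ulk1, the kinase that starts autophagy, was higher at E0.5 with and without E4.5 replicate 3 (6.37% of all rows with all libraries), with 10.4, 9.74 and 10.1 FPKM against 4.72, 4.86 and 5.10 FPKM (log2 fold change 1.05, SE 0.14, adjusted p = 0.0283, edgeR), and none met the criterion at the labor stage.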

How the data were processed

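RNA of whole uteri from 12 ICR mice was sequenced by the authors. The labels describe poly(A) selection and the study's methods describe removal of ribosomal RNA. Per the methods, the authors used Cutadapt for trimming, Bowtie2 and Tophat2 for alignment, and StringTie and Ballgown for expression levels, and the submitters' processing notes list Bowtie 0.12.2, HISAT2 2.0, StringTie 1.3.0 and the builds mm8 and mm10. The FPKM values were deposited by the authors in 1 table per stage, assembled and normalized separately. Whole-number counts were deposited for the implantation stage only, and how reads were assigned is not stated. The value 0.0001 in the first table stands for 0 and was set back.

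In R 4.3.3, counts of the implantation stage were tested by edgeR 4.0.16 (quasi-likelihood, TMM scaling). For the labor stage, log2(FPKM + 0.1) was tested by limma 3.58.1 with a mean-variance trend, on a scale that understates changes of low genes. Rows needed a mean of at least 0.1 FPKM, and p-values were adjusted by Benjamini-Hochberg over all tested rows. The stage difference was tested with limma over row pairs that share Ensembl transcripts. With 3 mice against 3, an exact permutation test cannot go below 0.1, so none is given for single genes. The scripts were tested on simulated data. The study's methods describe the uterus of each mouse as a sample, so each library is taken as 1 mouse. The p-values weigh the difference between days against the spread between these mice, which the fits moderate over all rows. DESeq2 1.42.0 was an alternative, as were other filters, scalings and pseudocounts, a block for the replicate number, and fits without each library.

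The members, gene lists and marker lists were chosen with earlier results of these data known. Ankrd37, which chose the members, is left out of their counts. Members are described in full where they met the study's criterion or their libraries did not overlap in either stage, and Ankrd37, Hif1a, Epas1, Vegfa and Gapdh in any case. Aldoc, Car12, Ndrg1, Slc16a3, Pgk1 and the other members named with values outside this rule, and the rows of copies and those without an Ensembl transcript, were chosen after their values were seen. Coordinates are those of the implantation table. Python 3.11.15 with pandas 2.3.3 was used for the tables. Some results of the gene lists and of the likeness to Ankrd37 are not reported here.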

Additional observations from a re-analysis of the deposited data

Results flagged for a closer look

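The effect of the day differed between the implantation and the labor stage for 2 of the 38 members other than Ankrd37, which was not tested, where 2.64% of all row pairs passed. For Egln1 the log2 fold change of E0.5 relative to E4.5 exceeded that of E18.5 relative to E15.5 by 1.45 (adjusted p = 0.00826, limma), and for Egln3 by 4.46 (adjusted p = 0.000421, limma). E0.5 is the earlier day of its stage and E18.5 the later one of its own, so the 2 effects are taken in opposite orders of time. With the later day set against the earlier in both stages, an order added after seeing the data, the difference was -1.94 for Egln1 and -3.28 for Egln3, past the adjusted p in both cases, and in this order 8 of the 38 members passed, against 7.61% of row pairs. Egln1 was higher in 3 of 3 libraries of E0.5 than in any of E4.5 and overlapped at the labor stage, and the same held for Egln3.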

How the results depend on the processing

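Of the 38 members other than Ankrd37, 8 met the criterion at the implantation stage, 3 passed the adjusted p, and between 7 and 11 met the criterion with a library left out. At the labor stage 2 met it, 0 passed the adjusted p, 8 had an unadjusted p under 0.05 with no fold change minimum, 1 met it with a pseudocount of 1, and between 1 and 5 did with a library left out. The stage difference gave 2 members and between 2 and 9 with a library left out. With the days in time order, chosen after seeing the data, it gave 8, or 7 without E15.5 replicate 1 and 10 without E4.5 replicate 3. By the adjusted p at the implantation stage, DESeq2 gave 8. Shares of all rows are given above for the main fits and for some fits without 1 library. None is given for the other alternatives, so a changed count is not read as particular to the members. With the replicate number as a block the criterion was met by 9 members for implantation and by 2 for labor, and none of the 3 passed the adjusted p. Same-numbered libraries correlated in their deviations from the group means by -0.13, 0.02 and -0.11 (implantation) or 0.05, 0.04 and -0.07 (labor), and no source describes the numbers as a pairing. With any 1 library left out, the sign of the fold change turned for 8 of the 38 members at the implantation stage and for 9 at the labor stage. Among the members that met the criterion or did not overlap in the stage concerned, with Hif1a, Epas1, Vegfa and Gapdh, it turned for Vegfa at the implantation stage (0.060 with upper quartile scaling, 0.17 without E0.5 replicate 1, 0.09 without E4.5 replicate 3, and -0.22 to 0.17 over the fits that left out 1 library) and for Hif1a at the labor stage (0.087 without E15.5 replicate 1, and -0.25 to 0.087 over such fits), all values that met no criterion. The cause was not tested. Of the other fold changes of these members and the member medians under an alternative, 381 kept direction and side of the criterion, 11 newly met it and 7 no longer did. Depth is unknown for the labor stage.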
